A study of Mus musculus with 7 samples.

Results

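The genes described here encode the proteins of the mitochondrial ribosome. They were taken as the protein-coding genes of the RefSeq table of GRCm38.p6 (mm10) whose symbols start with Mrpl or Mrps followed by a number. This gave 78 of the 21887 protein-coding genes with a nuclear chromosome, 49 with an Mrpl and 29 with an Mrps symbol, on 17 chromosomes. The symbols were given for the large and the small subunit, but the products of Mrps18a and Mrps30 are now known as large subunit proteins, so counts below are by symbol. Binding was measured by chromatin immunoprecipitation and sequencing (ChIP-seq) in branchial arches, the embryonic swellings that form the face and neck, taken from wild-type mice at embryonic stage 10.5 dpc. There was no mutant or treated group, and the strain was not given in the sources used here. The analysed lists are peaks of the β-catenin BA2 library and of the Pygo2 BA2 library, each called by the authors against IgG. The file headers name the IgG BA1 library, labelled as pre-immune serum, which is the only IgG library among the 7 samples. By the headers, the BA2 libraries were thus set against a control labelled BA1. The names of the deposited lists place BA2 after IgG and do not by themselves settle which control was meant. Each library was made from about 200 dissociated arches, so it pools many embryos and all cell types of the arch. What separates BA1 from BA2 is not stated in the labels.

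Each list rests on 1 library, so no value below has a replicate error and no test between conditions could be made. Shares are given with 95% Wilson intervals, which hold the counting error alone, and genes are not independent replicates. The Pygo2 library held 15009636 tags and its list 7150 peaks, and the β-catenin library held 13672937 tags and its list 1079 peaks, with means of 15.5 and 14.6 tags per peak (Pygo2 and β-catenin) against calling minimums of 10 and 11. Per the headers, the comparison with the control removed 12515 of 21859 putative Pygo2 peaks and 2837 of 4036 putative β-catenin peaks, and more were lost before the final lists. A gene without a listed peak may thus have had one that was filtered or one below the tag minimum, and the protein is not shown to be absent there. A peak list gives no expression, so the tissue label could not be checked by marker levels. Pygo2 peaks lay up to 50 kb from an end of 6 of 8 arch mesenchyme markers, against 3 of 6 pharyngeal epithelium, 3 of 5 endothelial, 2 of 5 blood, 2 of 5 neuronal and 0 of 6 hepatocyte markers. The share over all protein-coding genes was 45.8%, and these lists are too short to order the tissues.

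Mitochondrial ribosomes translate the few messenger RNAs that are encoded by the mitochondrial genome, all of which specify subunits of the respiratory chain or of the ATP synthase. Their proteins are encoded in the nucleus, made in the cytosol and imported. β-catenin carries the canonical Wnt signal to chromatin, where TCF/LEF factors bind the DNA. Pygo2 has a PHD finger that binds methylated histone H3 and is linked to β-catenin through Bcl9 proteins.

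Sequences at the start sites of 7 of these genes are shown because peaks of the lists lie at them. They are the genes at whose start side a β-catenin peak lay within 1 kb of an end (Mrps14, Mrpl45, Mrpl52 and Mrpl43) and those with the lowest-numbered Pygo2 peaks of the deposited list among peaks within 1 kb of an end on the start side (Mrpl34, Mrps18b and Mrpl12). Each RefSeq sequence (GRCm38.p6) runs 5′ to 3′ along the gene, from 250 bases before the start site to 50 after it. Capitals mark matches, on either strand, to 10 searched motifs of transcription factors and core promoters.
Mrps14 promoter, chr1:160194965-160195264, plus strand: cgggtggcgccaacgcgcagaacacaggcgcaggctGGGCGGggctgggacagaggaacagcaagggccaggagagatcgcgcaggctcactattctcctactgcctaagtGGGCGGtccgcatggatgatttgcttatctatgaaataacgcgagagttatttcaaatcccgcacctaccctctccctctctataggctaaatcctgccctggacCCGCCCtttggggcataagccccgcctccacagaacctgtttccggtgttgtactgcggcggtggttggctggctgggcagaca
Mrpl45 promoter, chr11:97315466-97315765, plus strand: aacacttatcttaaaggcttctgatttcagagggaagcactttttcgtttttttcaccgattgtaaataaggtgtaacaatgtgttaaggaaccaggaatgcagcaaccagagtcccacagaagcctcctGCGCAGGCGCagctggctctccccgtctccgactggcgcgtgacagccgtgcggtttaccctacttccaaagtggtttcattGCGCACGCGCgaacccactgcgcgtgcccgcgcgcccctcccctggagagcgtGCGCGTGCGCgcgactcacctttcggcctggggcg
Mrpl52 promoter, chr14:54426659-54426958, plus strand: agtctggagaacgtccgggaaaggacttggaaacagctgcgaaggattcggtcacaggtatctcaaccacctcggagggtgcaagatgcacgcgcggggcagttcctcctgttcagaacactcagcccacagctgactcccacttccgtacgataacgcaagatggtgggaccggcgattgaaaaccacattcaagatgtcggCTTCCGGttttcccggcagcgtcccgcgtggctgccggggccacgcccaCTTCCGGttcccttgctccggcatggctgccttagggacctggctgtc
Mrpl43 promoter, chr19:45006393-45006692, minus strand: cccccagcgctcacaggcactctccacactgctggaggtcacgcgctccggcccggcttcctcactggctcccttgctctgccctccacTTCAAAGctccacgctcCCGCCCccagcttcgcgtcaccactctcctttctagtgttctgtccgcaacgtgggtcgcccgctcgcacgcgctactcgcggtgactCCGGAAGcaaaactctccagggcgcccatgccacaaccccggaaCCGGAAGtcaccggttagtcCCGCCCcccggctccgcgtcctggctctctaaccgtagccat
Mrpl34 promoter, chr8:71464676-71464975, plus strand: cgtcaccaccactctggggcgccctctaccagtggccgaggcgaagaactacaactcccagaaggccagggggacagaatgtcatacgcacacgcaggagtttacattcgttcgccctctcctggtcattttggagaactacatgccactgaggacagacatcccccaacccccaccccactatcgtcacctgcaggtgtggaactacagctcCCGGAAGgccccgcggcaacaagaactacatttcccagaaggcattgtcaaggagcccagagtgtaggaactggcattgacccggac
Mrps18b promoter, chr17:35916391-35916690, minus strand: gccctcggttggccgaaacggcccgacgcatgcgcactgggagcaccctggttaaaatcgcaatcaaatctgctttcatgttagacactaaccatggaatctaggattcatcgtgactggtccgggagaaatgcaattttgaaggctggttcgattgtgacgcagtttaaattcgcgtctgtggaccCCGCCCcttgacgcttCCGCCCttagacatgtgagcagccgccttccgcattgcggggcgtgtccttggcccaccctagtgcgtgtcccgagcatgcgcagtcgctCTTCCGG
Mrpl12 promoter, chr11:120484387-120484686, plus strand: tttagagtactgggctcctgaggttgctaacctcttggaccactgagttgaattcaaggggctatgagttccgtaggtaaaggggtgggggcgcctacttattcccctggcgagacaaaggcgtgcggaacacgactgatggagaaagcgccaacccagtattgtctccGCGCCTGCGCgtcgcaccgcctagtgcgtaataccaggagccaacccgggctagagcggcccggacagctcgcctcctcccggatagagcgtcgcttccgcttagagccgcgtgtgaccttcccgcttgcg
In Mrpl45 the capitals are 3 matches to the NRF1 motif and in Mrpl12 1 such match. In Mrpl52, Mrpl43, Mrpl34 and Mrps18b they include the ETS family motif, and in Mrps14 they are 3 Sp1 matches.

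Pygo2 peaks lay at an end of 30 of the 78 mitochondrial ribosomal protein genes, measured from the peak centre and within 1 kb. This is 38.5% (interval 28.4 to 49.6%), and 16.5% of all protein-coding genes had such a peak, with the same call for every gene. The share among the mitochondrial ribosomal genes was thus above the background share, and its interval did not reach it. Within 50 kb of an end, a Pygo2 peak was found at 52 of the 78 (66.7%, interval 55.6 to 76.1%), beside 45.8% of all genes. Within 2, 5, 10 and 100 kb the shares were 44.9%, 52.6%, 53.8% and 76.9%, beside 18.9%, 22.6%, 27.2% and 57.3% of all genes, so the difference from the background was present at each window. The median distance to the nearest Pygo2 peak was 3.58 kb for the 78 genes and 64.7 kb for all genes. The 78 genes are also shorter, with a median length of 7.69 kb against 17.2 kb.

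**Figure D1:**
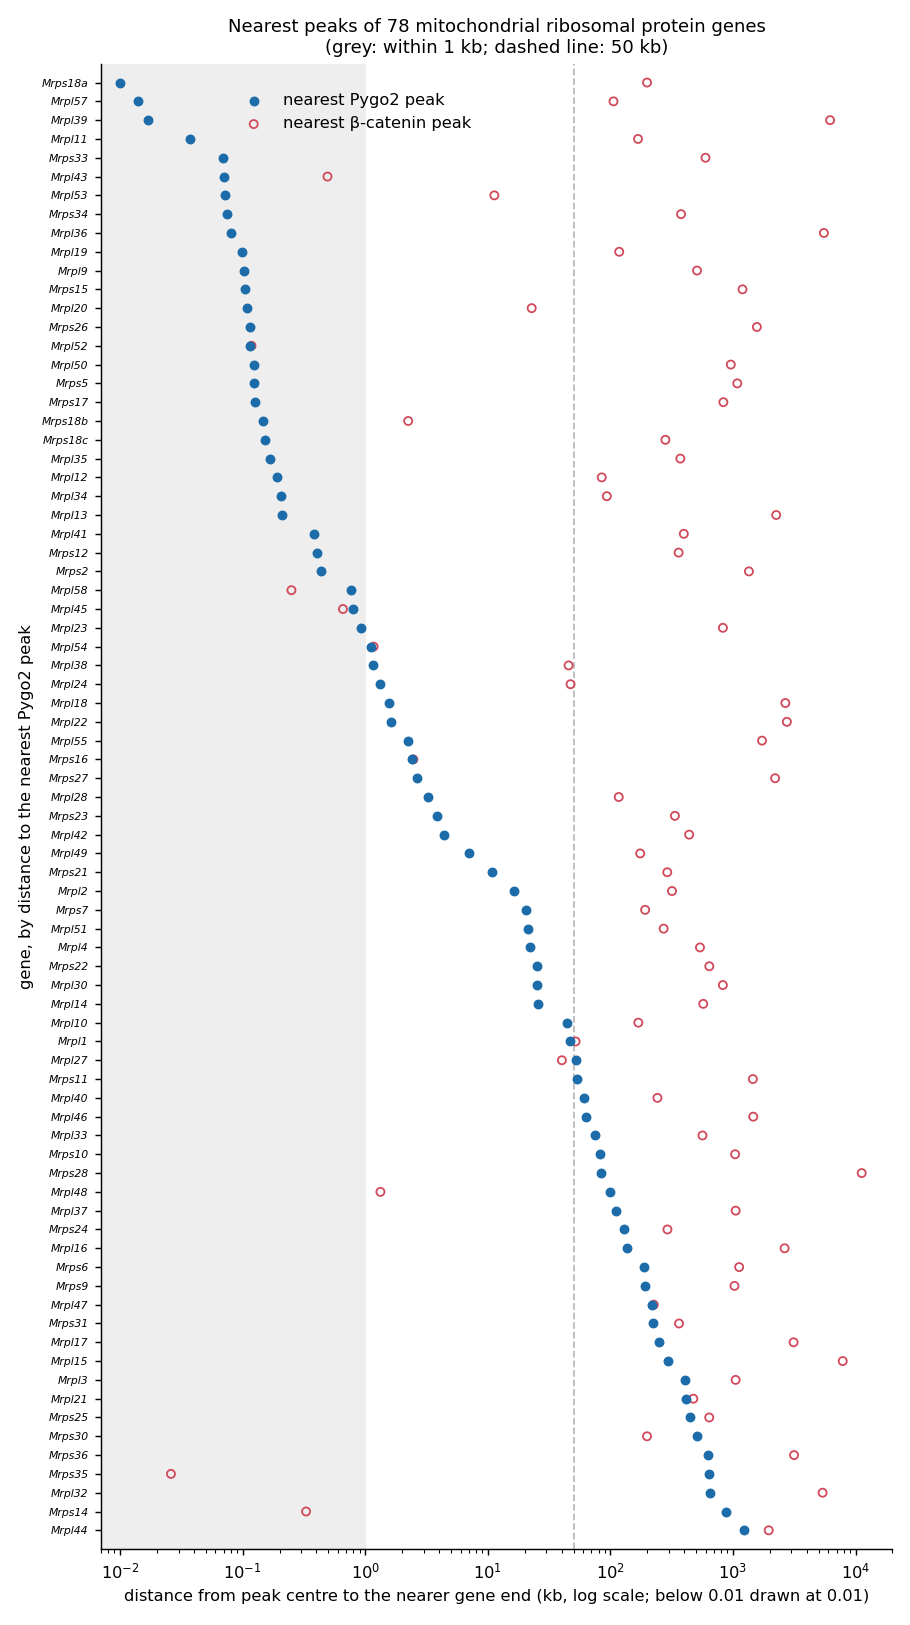
Distance from the centre of the nearest Pygo2 peak (filled) and the nearest β-catenin peak (open) to the nearer end of each of the 78 genes, in kb on a log axis, with genes ordered by the Pygo2 distance. Pygo2 points of 30 genes and β-catenin points of 6 genes lie in the grey area within 1 kb.

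β-catenin peaks were fewer in the same genes. They lay within 1 kb of an end of 6 of the 78 genes (7.69%, interval 3.57 to 15.8%), and 2.01% of all protein-coding genes had one. Within 50 kb, 15 genes had a β-catenin peak (19.2%, interval 12.0 to 29.3%), beside 10.9% of all genes. Within 2, 5, 10 and 100 kb, 8, 10, 10 and 18 of the 78 genes had one (10.3%, 12.8%, 12.8% and 23.1%), beside 2.53%, 3.43%, 4.55% and 17.0% of all genes. At 100 kb the background share lay inside the interval of the 78 genes (15.1 to 33.6%). The headers name the same IgG library for both lists, so they are not independent in that respect, and its tags were not analysed here.

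Both proteins together had peaks within 1 kb of 4 genes, Pygo2 alone of 26, β-catenin alone of 2, and neither of 46. The 4 genes with both are 5.13% of the 78, and 295 of all protein-coding genes (1.35%) had both. Of the 6 genes with a β-catenin peak there, 4 thus also had a Pygo2 peak; among all 440 genes with such a β-catenin peak the share was 67.0%. At 50 kb, 11 genes had peaks of both, 41 of Pygo2 alone, 4 of β-catenin alone (Mrps14, Mrps35, Mrpl48 and Mrpl27) and 22 of neither. The counts for 1 protein alone and for neither, and all of those at 50 kb, are given without a share over all genes. They therefore show no difference from a background. The genes nearest to the limit of 1 kb for Pygo2 were Mrpl23 at 0.931 kb inside it and Mrpl54 at 1.12 kb outside it. For β-catenin they were Mrpl45 at 0.658 kb and Mrpl54 at 1.17 kb.

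**Figure D2:**
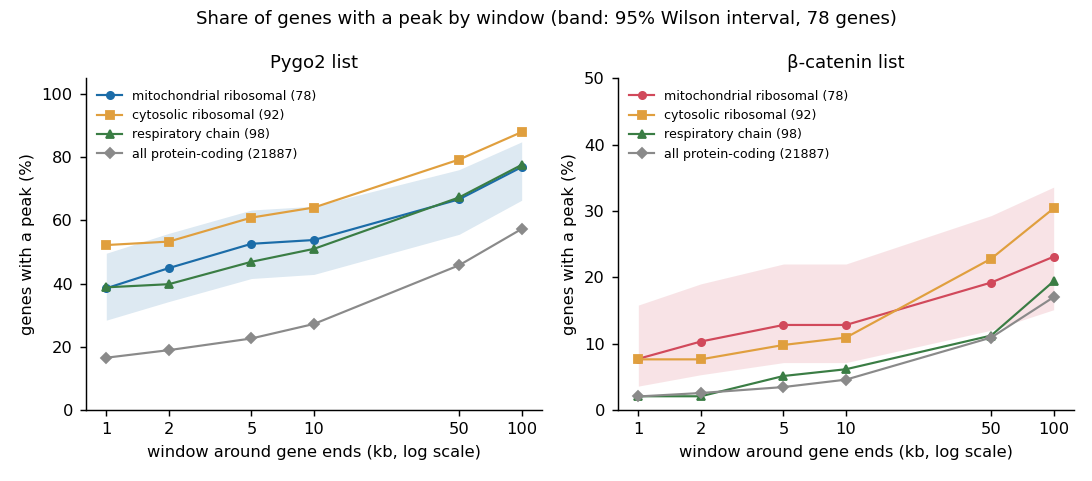
Share of genes with a peak, in percent, against the window around gene ends in kb on a log axis, for the Pygo2 list (left) and the β-catenin list (right); lines are gene lists and the band is the 95% Wilson interval of the 78 genes. At 1 kb the Pygo2 share is 38.5% for mitochondrial ribosomal, 38.8% for respiratory chain, 52.2% for cytosolic ribosomal and 16.5% for all genes.

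The 4 genes with peaks of both proteins within 1 kb of an end were Mrpl45, Mrpl52, Mrpl43 and Mrpl58, all with an Mrpl symbol. Mrpl45, which lies near the polypeptide exit of the large subunit and takes part in its attachment to the inner membrane, spans 97314923 to 97329920 on chromosome 11. That gene model begins upstream of the listed RefSeq start site. Its β-catenin peak at 97315497 to 97315665 and its Pygo2 peak at 97315631 to 97315797 overlapped by 35 bp, and their centres lay 135 bp and 2 bp before the RefSeq start site. Of the 3 NRF1 matches printed above for Mrpl45, 1 lies in the β-catenin peak and 2 in the Pygo2 peak. At Mrpl52 (chromosome 14, 54426909 to 54429750), which encodes a large subunit protein, the peaks coincided almost fully. The β-catenin peak spanned 54426707 to 54426875 and the Pygo2 peak 54426711 to 54426877, an overlap of 165 bp, with centres 118 bp and 115 bp before the start site, and 1 of the 2 printed ETS family matches lies in both peaks. Mrpl45 and Mrpl52 were the only 2 of the 78 genes whose peaks overlapped within 1 kb (2.56%, interval 0.706 to 8.88%), beside 0.772% of all genes.

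At Mrpl43 and Mrpl58 the peaks of both proteins stood apart. Mrpl43 (chromosome 19, 45005014 to 45006442) shares its promoter region with Twnk, the gene of the mitochondrial DNA helicase, whose start lies 116 bp away and runs the other way. The Pygo2 peak at 45006289 to 45006455 lay 70 bp inside Mrpl43 from its start, and the β-catenin peak at 45006850 to 45007018 lay 492 bp before the start, on the Twnk side. Mrpl58 encodes a large subunit protein related to release factors, which frees peptides from stalled ribosomes (chromosome 11, 115403724 to 115412674). Its peaks were at the far end from the listed start: the β-catenin peak at 115412340 to 115412508 was 0.25 kb inside that end and the Pygo2 peak at 115413361 to 115413527 was 0.77 kb outside it.

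Mrps14 and Mrps35 had a β-catenin peak and no Pygo2 peak within 50 kb. Mrps14, a small subunit protein with a bacterial counterpart (chromosome 1, 160195215 to 160201186), had its β-catenin peak at 160194802 to 160194970, with the centre 329 bp before the start site, so that it reaches only 6 bp into the printed promoter. Its nearest Pygo2 peak was 870 kb away. Mrps35, a small subunit protein (chromosome 6, 147042728 to 147070906), had its β-catenin peak at 147042618 to 147042786, 0.026 kb from a gene end, and its nearest Pygo2 peak at 632 kb. Measured to gene ends, all 6 β-catenin peaks within 1 kb were nearer to the mitochondrial ribosomal gene than to any other protein-coding gene. At Mrpl43, however, the listed start of Twnk lies between the Mrpl43 start and the β-catenin peak. That peak is thus nearer to the Twnk start than to Mrpl43. The 6 peaks stood at 41.3 to 70.0% of the length of the β-catenin list, with a median of 56.5%. The median over all β-catenin peaks within 1 kb of a gene end was 48.1%. The headers do not state the order of the list, so its position is given as it stands and not as a strength.

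Overlapping peaks within 50 kb were found at 7 genes (8.97%, interval 4.42 to 17.4%), beside 3.99% of all genes. At 2, 5, 10 and 100 kb the counts were 3, 5, 5 and 8, or 3.85%, 6.41%, 6.41% and 10.3%, beside 0.955%, 1.23%, 1.63% and 6.31% of all genes. Besides Mrpl45 and Mrpl52 these were Mrpl54, Mrps16, Mrps18b, Mrpl20 and Mrpl53. The overlapping β-catenin peak lay 1.17 kb from Mrpl54 and 1.16 kb from its neighbour Apba3. That of Mrps16 lay 2.47 kb from it and 0.155 kb from Dnajc9, and that of Mrps18b 2.24 kb from it and 2.17 kb from Ppp1r10. The β-catenin peak 22.8 kb from Mrpl20 was 0.314 kb from Aurkaip1, which encodes another small subunit protein of the mitochondrial ribosome under a different symbol. The 2 at Mrpl53 were 27.2 kb and 30.7 kb away and nearer to Rtkn and Pcgf1. In these 5 genes the overlapping peak was thus nearer to another gene.

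A Pygo2 peak lay within 0.25 kb of an end at 24 of the 78 genes. The share of all protein-coding genes at 0.25 kb of an end was not counted. Of all genes with a Pygo2 peak within 1 kb of a listed start, 72.7% had it within 250 bp of that start. The Pygo2 peak nearest to an end was at Mrps18a (chromosome 17, 46111004 to 46128908). It spanned 46110921 to 46111087 and was centred on the gene end itself, 0 bp from the listed start. Mrps18a, Mrps18b and Mrps18c are 3 paralogues of the bacterial ribosomal protein S18, and each had a Pygo2 peak within 1 kb, at 0, 0.146 and 0.151 kb. The next nearest were Mrpl57 at 0.014 kb, Mrpl39 at 0.017 kb, Mrpl11 at 0.037 kb, Mrps33 at 0.069 kb, Mrpl43 at 0.07 kb, Mrpl53 at 0.072 kb, Mrps34 at 0.075 kb, Mrpl36 at 0.081 kb and Mrpl19 at 0.098 kb. Mrpl11 is the counterpart of a bacterial protein of the factor-binding region of the large subunit, and it had 2 Pygo2 peaks within 1 kb, centred 117 bp and 482 bp before its start. Mrpl20 also had 2, centred 108 bp and 644 bp after its start. The other 28 had 1 each, so that 32 distinct peaks served the 30 genes.

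The remaining genes with a Pygo2 peak within 1 kb had symbols of both kinds. With an Mrpl symbol they were Mrpl9, Mrpl12, Mrpl13, Mrpl23, Mrpl34, Mrpl35, Mrpl41 and Mrpl50, at 0.103 to 0.931 kb. With an Mrps symbol they were Mrps2, Mrps5, Mrps12, Mrps15, Mrps17 and Mrps26, at 0.105 to 0.435 kb. In all, 19 of 49 Mrpl genes (38.8%, interval 26.4 to 52.8%) and 11 of 29 Mrps genes (37.9%, interval 22.7 to 56.0%) had a Pygo2 peak within 1 kb. The interval of the Mrpl genes lay inside that of the Mrps genes. At 50 kb the shares were 71.4% (interval 57.6 to 82.2%) and 58.6% (interval 40.7 to 74.5%), again with overlapping intervals. β-catenin peaks within 1 kb were at 4 Mrpl and 2 Mrps genes.

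The Pygo2 peaks of lowest list number within 1 kb of a gene end were at Mrpl34, Mrps18b, Mrpl58, Mrpl12, Mrpl45, Mrps12, Mrpl57, Mrpl20, Mrps34 and Mrps18a, at positions 49, 56, 424, 479, 762, 991, 1060, 1535, 1653 and 1656 of 7150. Mrpl34 is the counterpart of a small bacterial large subunit protein (chromosome 8, 71464926 to 71465753). Its Pygo2 peak at 71464637 to 71464803 was 206 bp before its start, and the gene end of Abhd8 was closer, at 0.013 kb. The Pygo2 peak of Mrps18b (chromosome 17, 35910380 to 35916440) at 35916503 to 35916669 was 146 bp before its start and 0.074 kb from Ppp1r10. Mrpl12, a protein of the mobile stalk of the large subunit, spans 120484637 to 120488754 on chromosome 11. Its Pygo2 peak at 120484363 to 120484529 was 191 bp before its start, and the NRF1 match printed above lies between the peak and the start. Over all 32 peaks the median position was at 36.0% of the Pygo2 list, with a range from 0.685 to 90.1%, and the median over all 3269 Pygo2 peaks within 1 kb of a gene end was 35.2%.

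The RefSeq promoter table gives strand and start sites for 69 of the 78 genes, which allowed the start to be told from the far end. Within 1 kb of a listed start, 28 of 69 genes had a Pygo2 peak (40.6%, interval 29.8 to 52.4%), beside 17.3% of the 17492 protein-coding genes in that table. These 28 comprised 25 of the 30 genes above and 3 more, Mrpl18, Mrpl22 and Mrpl24, whose gene models reach past the listed start. At Mrpl22 the peak at 58171570 to 58171736 on chromosome 11 was 11 bp before the start, at Mrpl24 the peak at 87919381 to 87919547 on chromosome 3, at position 193 of the list, was 80 bp before it, and at Mrpl18 the peak at 12916135 to 12916301 on chromosome 17 was 127 bp before it. At Mrps2 a second Pygo2 peak lay 34 bp before the start. Only Mrpl36 and Mrpl58 had a Pygo2 peak at an end but none within 1 kb of their listed start; Mrpl13, Mrpl19 and Mrps34 were not placed by strand.

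The Pygo2 peaks at starts lay mainly just upstream. Of the 28 nearest peaks, 22 were centred before the start, 5 after it and 1 on it, with a median of 97 bp before the start and a range from 401 bp before to 366 bp after it. In all protein-coding genes with such a peak the median was 69 bp before the start. There, 64.5% of the nearest peaks were centred before the start, beside 78.6% of the 28. Within 250 bp on either side lay 25 of the 28 (89.3%), beside 72.7% of the 3032 genes of the table with a Pygo2 peak there. For β-catenin, 5 of 69 genes had a peak within 1 kb of a listed start (7.25%, interval 3.13 to 15.9%), beside 2.16% of all genes in the table. They were Mrps14, Mrpl43, Mrpl45 and Mrpl52, with Mrpl48, where the peak lay 649 bp after a start and 0.602 kb from Rab6a.

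**Figure D3:**
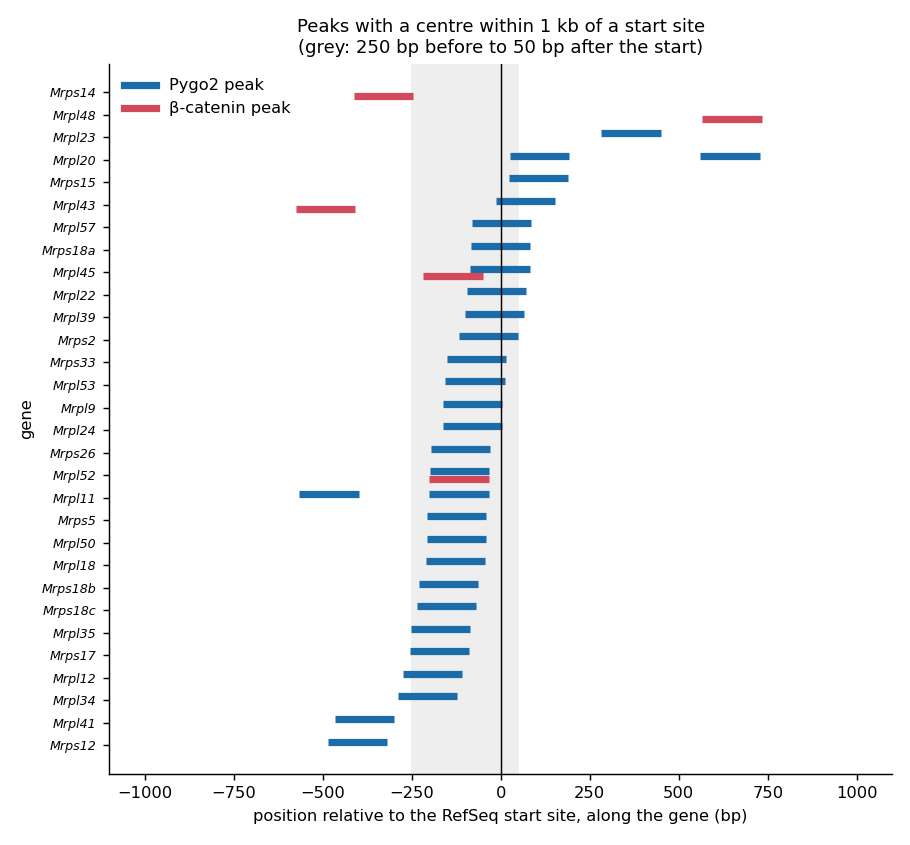
Extent of each Pygo2 and β-catenin peak whose centre lies within 1 kb of a RefSeq start site, in bp along the gene, 1 row per gene. Pygo2 bars of 28 genes cluster just before the start, and the β-catenin bars of Mrpl52 and Mrpl45 overlap the Pygo2 bars.

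Many of these genes have a close neighbour, so a peak can serve more than 1 gene. Another protein-coding gene ended or started within 1 kb of 44 of the 78 genes (56.4%, interval 45.4 to 66.9%), beside 24.8% of all genes. Of the 30 genes with a Pygo2 peak within 1 kb, 9 had it nearer to another gene: Mrpl13 to Mtbp, Mrpl34 to Abhd8, Mrpl36 to Ndufs6, Mrpl50 to Zfp189, Mrps2 to 1700007K13Rik, Mrps12 to Sars2, Mrps18b to Ppp1r10, Mrps18c to Helq and Mrps34 to Eme2. Ndufs6 encodes a complex I subunit and Sars2 the mitochondrial seryl-tRNA synthetase. When a peak was counted only for the closest gene, 21 of the 78 genes kept a Pygo2 peak within 1 kb (26.9%), beside 14.0% of all genes. At 50 kb, 26 kept one (33.3%), beside 22.0% of all genes.

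Divergent starts, where a neighbouring gene begins within 1 kb upstream on the other strand, were present at 24 of 69 genes (34.8%, interval 24.6 to 46.6%), beside 8.48% of the genes in the promoter table. A Pygo2 peak lay within 1 kb of the start at 9 of these 24 genes (37.5%, interval 21.2 to 57.3%), and among all 1483 genes with a divergent start 39.6% had one. Of the 45 genes without a divergent start, 19 had a Pygo2 peak (42.2%, interval 29.0 to 56.7%), and among all 16009 such genes 15.3% had one. With divergent starts, the mitochondrial ribosomal share was therefore near the background of such genes, and without them it was above it. The 9 were Mrpl18 with Tcp1, Mrpl41 with Pnpla7, Mrpl43 with Twnk, Mrpl50 with Zfp189, Mrpl57 with Ska3, Mrps5 with Zfp661, Mrps12 with Sars2, Mrps18b with Ppp1r10 and Mrps18c with Helq. Mrpl46 and Mrps11 run away from each other, with starts 42 bp apart, and neither had a peak of either list within 50 kb. Mrpl47 and Ndufb5, a complex I subunit gene, start 308 bp apart, and Mrpl47 likewise had no peak in that window.

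Promoters of these genes were rich in CpG. CpG-rich was taken as at least 50% G and C and an observed to expected CpG ratio of at least 0.6 in the 300 bases, and 59 of the 75 promoters of the 69 genes met this (78.7%), beside 45.1% of all 21263 promoters of protein-coding genes. A Pygo2 peak overlapped 25 of the 75 promoters by at least 1 bp (33.3%, interval 23.7 to 44.6%), beside 11.3% of all promoters. Among CpG-rich promoters alone the shares were 32.2% (interval 21.7 to 44.9%) and 20.6%. Among the promoters below these limits, 6 of 16 promoters were overlapped (37.5%, interval 18.5 to 61.4%), beside 3.56%. β-catenin peaks overlapped 3 of the 75 promoters (those of Mrps14, Mrpl45 and Mrpl52; 4.00%, interval 1.37 to 11.1%), beside 1.03% of all promoters. Gene activity was not measured here, so these shares were not compared at equal expression.

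**Figure D4:**
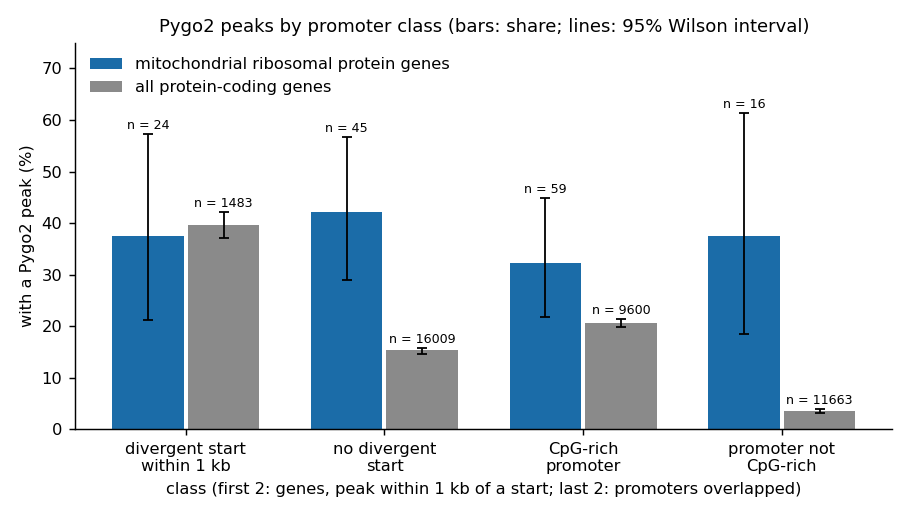
Share of mitochondrial ribosomal protein genes and of all protein-coding genes with a Pygo2 peak, in percent, by class of promoter; bars give the share, lines the 95% Wilson interval and n the number of genes (left) or promoters (right). With a divergent start the shares are 37.5% and 39.6%, and without one 42.2% and 15.3%.

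The promoters were searched for 10 motifs on both strands, with no mismatch allowed. The NRF1 motif, the site of a nuclear activator of mitochondrial genes, was found in 13 of 75 promoters (17.3%), beside 6.38% of all promoters. The ETS family motif CCGGAAG, the site type of GABPA, was found in 26 (34.7%), beside 11.6%. The YY1 motif AAGATGGCG was found in 8 (10.7%), beside 1.83%. The Sp1 motif GGGCGG and the NF-Y motif CCAAT were found in 39 (52.0%) and 30 (40.0%), beside 46.2% and 38.2%. NRF1, ETS family and YY1 matches were thus at higher shares than in all promoters, and Sp1 and NF-Y matches at shares near them. CpG-rich promoters made up 78.7% of the 75 and 45.1% of all promoters. Motif shares were not counted among CpG-rich promoters alone, so these differences are not adjusted for base composition.

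Motifs of TCF/LEF, the DNA-binding partners of β-catenin, were searched in 2 forms. CTTTGAT was found in 0 of the 75 promoters, beside 3.22% of all, and CTTTGAA in 6 (8.00%), beside 4.54%. These counts are too small to place either form above or below the background, and no test was made. The 6 promoters with CTTTGAA were those of Mrpl1, Mrpl24, Mrpl27, Mrpl35, Mrpl43 and Mrps25, so of the 4 printed promoters at β-catenin peaks only that of Mrpl43 held it, and the β-catenin peak there lay outside the 300 bases. No match says only that these letters are not in this window. The CREB/ATF motif TGACGTCA was found in 2 promoters (2.67%, beside 2.23%), the E-box CACGTG in 7 (9.33%, beside 7.84%) and the TATA box TATAAA in 5 (6.67%, beside 12.6%). The E-box promoters were those of Mrpl2, Mrpl20, Mrpl36, Mrpl37 and Mrps18c. Overlapping windows of Mrpl2 with the same E-box were counted separately, so 7 exceeds the number of genes.

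The 75 promoters of 69 genes with and without a Pygo2 peak were set side by side. The ETS family motif was in 12 of 25 promoters overlapped by a Pygo2 peak (48.0%) and in 14 of 50 others (28.0%), and in all promoters the shares were 25.3% and 9.82%. The NRF1 motif was in 6 of 25 (24.0%) and 7 of 50 (14.0%), beside 14.2% and 5.38% in all promoters. The Sp1 motif was in 10 of 25 (40.0%) and 29 of 50 (58.0%), whereas in all promoters it was in 70.4% of those with a Pygo2 peak and 43.1% of the others. The order of the Sp1 shares was thus the reverse of that in all promoters, in small numbers and without a test. Mrpl2, Mrpl48 and Mrps16 have several listed promoters, which were counted separately among the 50, so these are not independent. CpG-rich promoters made up 76.0% of the 25 and 80.0% of the 50.

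**Figure D5:**
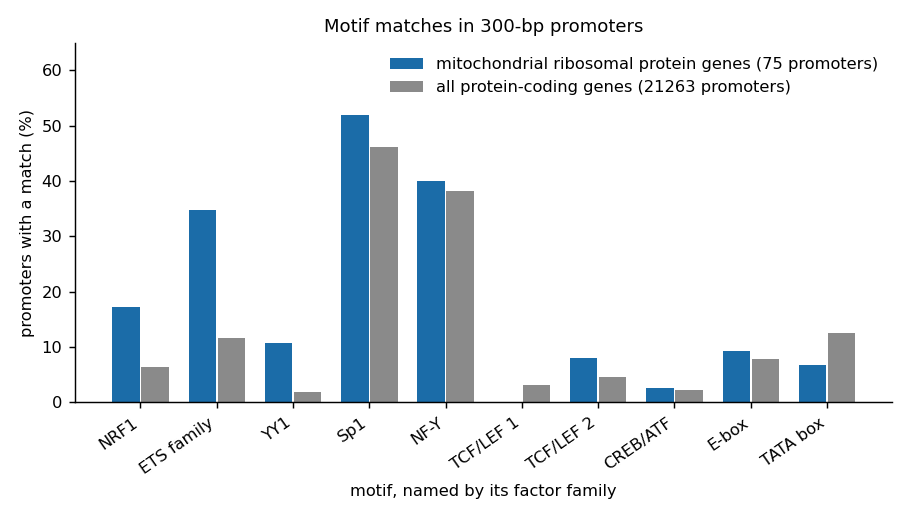
Share of 300-base promoters with at least 1 match to each motif, in percent, for the 75 promoters of mitochondrial ribosomal protein genes and all 21263 promoters of protein-coding genes; TCF/LEF 1 and 2 are the forms ending in T and in A. NRF1, ETS family and YY1 bars are 17.3%, 34.7% and 10.7%, beside 6.38%, 11.6% and 1.83%. The 2 sets were not matched for CpG content.

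Away from the gene ends, 22 genes had their nearest Pygo2 peak between 1 and 50 kb: Mrpl1, Mrpl2, Mrpl4, Mrpl10, Mrpl14, Mrpl18, Mrpl22, Mrpl24, Mrpl28, Mrpl30, Mrpl38, Mrpl42, Mrpl49, Mrpl51, Mrpl54, Mrpl55, Mrps7, Mrps16, Mrps21, Mrps22, Mrps23 and Mrps27. Of the 52 genes with a Pygo2 peak within 50 kb, 26 had peaks that were all nearer to other genes. Among all protein-coding genes, 10017 had a Pygo2 peak within 50 kb, and 4813 kept one when a peak counted only for the closest gene. Such losses were thus not particular to the mitochondrial ribosomal genes. The number of Pygo2 peaks within 50 kb of these 52 genes had a median of 2 and reached 7 at Mrpl53 and 6 at Mrpl20. Of the 15 genes with a β-catenin peak within 50 kb, 9 had peaks that were all nearer to other genes, as at Mrpl24 (47.3 kb, and 0.356 kb from Nes) and Mrpl38 (45.6 kb, and 0.742 kb from Wbp2).

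The 22 genes with no peak of either list within 50 kb were Mrpl3, Mrpl15, Mrpl16, Mrpl17, Mrpl21, Mrpl32, Mrpl33, Mrpl37, Mrpl40, Mrpl44, Mrpl46, Mrpl47, Mrps6, Mrps9, Mrps10, Mrps11, Mrps24, Mrps25, Mrps28, Mrps30, Mrps31 and Mrps36. Mrpl44 had the most distant Pygo2 peak of the 78, at 1239 kb. Mrps36 is also known as a subunit of the 2-oxoglutarate dehydrogenase complex, and its nearest peaks lay 628 kb (Pygo2) and 3151 kb (β-catenin) away.

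Other genes of mitochondrial translation were examined as lists chosen by role, to be read beside the shares of 16.5% (Pygo2) and 2.01% (β-catenin) over all protein-coding genes within 1 kb. Of 5 subunit genes of the mitochondrial ribosome without an Mrp symbol (Dap3, Ptcd3, Gadd45gip1, Chchd1 and Aurkaip1), Aurkaip1 had peaks of both proteins within 1 kb, at 0.342 kb for Pygo2 and 0.314 kb for β-catenin, and they overlapped. Of 19 genes for assembly of the mitochondrial ribosome and modification of its RNA, 7 had a Pygo2 peak within 1 kb (36.8%, interval 19.1 to 59.0%): Eral1, Fastkd2, Malsu1, Mettl17, Mrm1, Mtg2 and Nsun4. Malsu1, an assembly factor of the large subunit, also had a β-catenin peak at 0.045 kb that overlapped a Pygo2 peak. Of 14 genes of translation factors and related proteins, Lrpprc and Mrrf had a Pygo2 peak within 1 kb (14.3%, interval 4.01 to 39.9%). Lrpprc, Slirp and Oxa1l were counted among the related proteins. This Pygo2 share was near the background, and Gfm2 had a β-catenin peak at 0.101 kb. Of 6 mitochondrial transcription genes, 3 had a Pygo2 peak there: Polrmt, the mitochondrial RNA polymerase gene, at 0.04 kb, Mterf2 at 0.042 kb and Tfb2m at 0.075 kb. Of 9 nuclear regulators of mitochondrial genes, Ppargc1a at 0.001 kb and Esrra at 0.943 kb had one (22.2%, interval 6.32 to 54.7%, which holds the background), and Esrra had a β-catenin peak at 0.121 kb. Nrf1, Gabpa and Yy1, the genes of the factors named for the motifs above, had their nearest Pygo2 peaks at 238, 99.6 and 98.1 kb.

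Beside related gene lists the Pygo2 share of the mitochondrial ribosomal genes at 1 kb was close to that of the nuclear respiratory chain genes and below that of the cytosolic ribosomal genes. It was 38.8% (interval 29.7 to 48.7%) for 98 respiratory chain and ATP synthase genes, assembly factors of complex I included, and 52.2% (interval 42.1 to 62.1%) for 92 cytosolic ribosomal protein genes. The interval of the cytosolic list overlaps that of the mitochondrial ribosomal list. For β-catenin the shares at 1 kb were 7.69% for the mitochondrial ribosomal genes, 7.61% (interval 3.73 to 14.9%) for cytosolic ribosomal and 2.04% (interval 0.561 to 7.14%) for respiratory chain genes, also with overlapping intervals. These differences were not tested, since each list rests on 1 library.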

How the data were processed

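Per the file headers, the authors ran HOMER's findPeaks (factor style) on 1 library per list with IgG BA1 named as control. The headers give a false discovery rate of 0.001, a minimum of 2-fold over both IgG and the surrounding 10000 bp, and a Poisson p-value of 1e-04. Bowtie, Bowtie2, HOMER and mm10 appear in the submitters' processing notes, without versions. The score column as deposited holds 1 throughout and gives no strength, and peaks are 167 bp (Pygo2) or 169 bp (β-catenin) wide. Other libraries were not analysed here.

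Distances ran from the peak centre to the nearer gene end of the RefSeq table (GRCm38.p6, 1-based), or to RefSeq start sites. Peaks of both lists overlapped if 1 bp or more was common. Of the genes listed by name Mtrfr did not match, and S6 kinase genes and Rps19bp1 were kept out of the ribosomal list. The rule for naming genes covered genes with β-catenin or overlapping peaks, the nearest and lowest-numbered Pygo2 peaks, genes with several peaks, and printed promoters. Mrpl58 was not printed because its peaks lie at the far end, and Mrps35 because no start site was listed for it. Other genes given with values, such as Mrpl44, Mrps36 and those with start-site peaks, were picked after their values were seen. The members and lists were chosen with earlier results of these data known, and the CpG classes and neighbour classes after seeing the data. Scripts were checked on simulated peaks and motifs. Python 3.11.15, NumPy 2.4.6, pandas 2.3.3, SciPy 1.17.1 and Matplotlib 3.10.9 were used.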

Additional observations from a re-analysis of the deposited data

How the results depend on the processing

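No paired analysis was possible because each list rests on 1 library and no result comes from a test. Of 32 alternative values for 5 counts of genes, 22 were within 1.5 times the value reported. The 30 genes with a Pygo2 peak within 1 kb ranged from 21 (list shortened to its upper part, or nearest gene alone) to 41 (window of 5 kb). The 21 genes are 26.9%, beside 11.4% (shortened list) and 14.0% (nearest gene alone) of all genes. The 41 genes are 52.6%, beside 22.6%. Adding the 5 subunit genes without an Mrp symbol gave 31 of 83 (37.3%). With nearest genes alone the 50 kb counts fell to 26 for Pygo2 (33.3%, beside 22.0% of all genes) and 6 for β-catenin (7.69%, beside 3.68%). With the earlier-listed 50% of the β-catenin list, 2 genes kept a peak within 1 kb (2.56%, beside 1.09% of all genes). Within 50 kb 8 genes kept one (10.3%, beside 6.3%). With the full β-catenin list a window of 5 kb gave 10 (12.8%, beside 3.43%). Overlapping peaks were found at 1 gene, Mrpl52, when at least 50% of a peak had to overlap, a setting not counted over all genes. Within 5 kb they were found at 5 genes (6.41%, beside 1.23%). Keeping only the 34 genes without another gene end within 1 kb, an alternative chosen after seeing the data, gave 14 with a Pygo2 peak within 1 kb (41.2%, beside 11.9% of all such genes), 20 within 50 kb (58.8%, beside 38.1%), and with a β-catenin peak 5 within 1 kb (14.7%, beside 1.56%) and 6 within 50 kb (17.6%, beside 8.81%); these counts are lower because fewer genes enter. What depth limits was not tested; peaks held means of 15.5 (Pygo2) and 14.6 (β-catenin) tags against minimums of 10 and 11.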
